A study of Rattus norvegicus with 9 samples.

Results

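The 7 complement regulators Cd55, Cd59, Cd46, Cfi, Serping1, Clu, and Vtn were examined in ASCs, the mesenchymal stem cells grown from fat. They were chosen by name from the 35362 genes of the deposited count table, as regulators bound to the membrane (Cd55, Cd59, Cd46) or secreted (Cfi, Serping1, Clu, Vtn), and each symbol matched 1 row of the table. Against subcutaneous cells, the cells of both visceral depots had more Cd55 and less Cd59, Cfi, Serping1, and Clu. The rise of Cd55 was larger in perirenal than in epididymal cells, and the fall of Serping1 was deeper there as well. Of the 7 regulators, 6 had enough counts to be tested, and Vtn was detected in subcutaneous cells alone, at 7 to 14 counts.

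Complement is a cascade of plasma proteins in which recognition of a surface by C1q or by lectins activates serine proteases that cleave C4, C2, and C3. The C3 convertases that form deposit C3b on nearby surfaces, and the terminal components then assemble into the membrane attack complex. Host cells are protected by regulators that act at separate steps. Serping1 is the C1 inhibitor, which inactivates C1r, C1s, and the mannose-binding lectin proteases. Cd55 speeds the decay of the C3 convertases, Cfi cleaves C3b and C4b with the help of cofactors such as Cd46, and Cd59 blocks the last step of pore formation, while clusterin (Clu) and vitronectin (Vtn) bind terminal complexes in fluid.

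The cells came from untreated male Sprague Dawley rats aged 6 weeks, from the groin (SASCs), around the kidney (PASCs), and around the epididymis (EASCs), with 3 samples in each group. All were plastic-adherent cells at passage 3 that were grown in high glucose medium with fetal bovine serum, so serum proteins were supplied by the medium and only RNA was measured. Wells of a plate were extracted one by one, and no source used here says which rat supplied each sample, so p-values measure the spread between these samples, which may be technical. No group is an untreated control of another, and SASCs served as the reference of both visceral groups.

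A sample held 17591916 to 30299032 counts in all, and 3 counts corresponded to 0.104 to 0.159 CPM (counts per 1e+06 counts of the library after TMM scaling). The genes of ribosomal RNA took 10.4 to 15.5% of all SASC counts, 22.4 to 32.9% of those of PASCs, and 15.9 to 40.3% of those of EASCs. All 10 stromal markers listed were at 1 CPM or more in every sample. Lum and Pdgfra were 34.8-fold and 5.55-fold lower in PASCs than in SASCs and 43.6-fold and 6.58-fold lower in EASCs. Others went the other way, with Eng and Itgb1 3.41-fold and 2.82-fold higher in EASCs than in SASCs. Of the 10, 6 were higher and 3 lower in PASCs at an adjusted p-value under 0.05 (edgeR), and 6 and 4 in EASCs. The 10 summed to 18759 to 19606 CPM (SASCs), 22714 to 27662 CPM (PASCs), and 26257 to 29000 CPM (EASCs). Col1a1 averaged 10692, 19124, and 20321 CPM of that sum. Markers of other cells differed between the groups. The summed level of 6 smooth muscle markers lay at 169 to 183 CPM (SASCs), 2913 to 3224 CPM (PASCs), and 6482 to 6843 CPM (EASCs), and that of 9 mesothelial markers was 21.6 to 23.2, 227 to 229, and 192 to 206 CPM. The 8 leukocyte markers found in the table summed to 47.0 to 52.8, 117 to 121, and 169 to 180 CPM in the same order, with the lymphocyte gene Cd3e at 0 in every sample. Endothelial markers (6 genes) summed to 52.1 to 53.6, 13.3 to 15.9, and 35.2 to 38.4 CPM, and adipocyte markers (6 genes) to 1780 to 1858, 122 to 152, and 120 to 124 CPM. Lpl alone averaged 1721, 115, and 112 CPM of the adipocyte sum. These lists move with the depots, as the regulators do, and their part in the results was not tested. In such bulk samples, fewer cells of a type and less RNA per cell cannot be told apart.

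Genes were called when the fold change was above 2 and the adjusted p-value under 0.05 (quasi-likelihood test of edgeR, fitted to the 9 samples together, p-values adjusted after Benjamini and Hochberg over the 14770 genes tested). In PASCs against SASCs, 1 of the 6 regulators tested was called higher and 4 lower, where 12% of all genes tested were called higher and 14.9% lower. In EASCs against SASCs, 0 were called higher and 3 lower, against 13.5% and 14.2% of all genes, and 5 of the 6 passed an adjusted p-value of 0.05 at any fold, as 69.7% of all genes did. At any fold, 5 regulators also passed in PASCs, where 69.2% of genes did. Between EASCs and PASCs, 1 was called higher in EASCs and 1 lower, against 5.19% and 2.2% of all genes, and 4 passed at any fold, against 30.7%. The median log2 fold change of the 6 regulators was -2.12 in PASCs and -1.54 in EASCs against SASCs and 0.40 between EASCs and PASCs, beside -0.01, 0.01, and -0.01 for all genes tested.

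**Figure D1:**
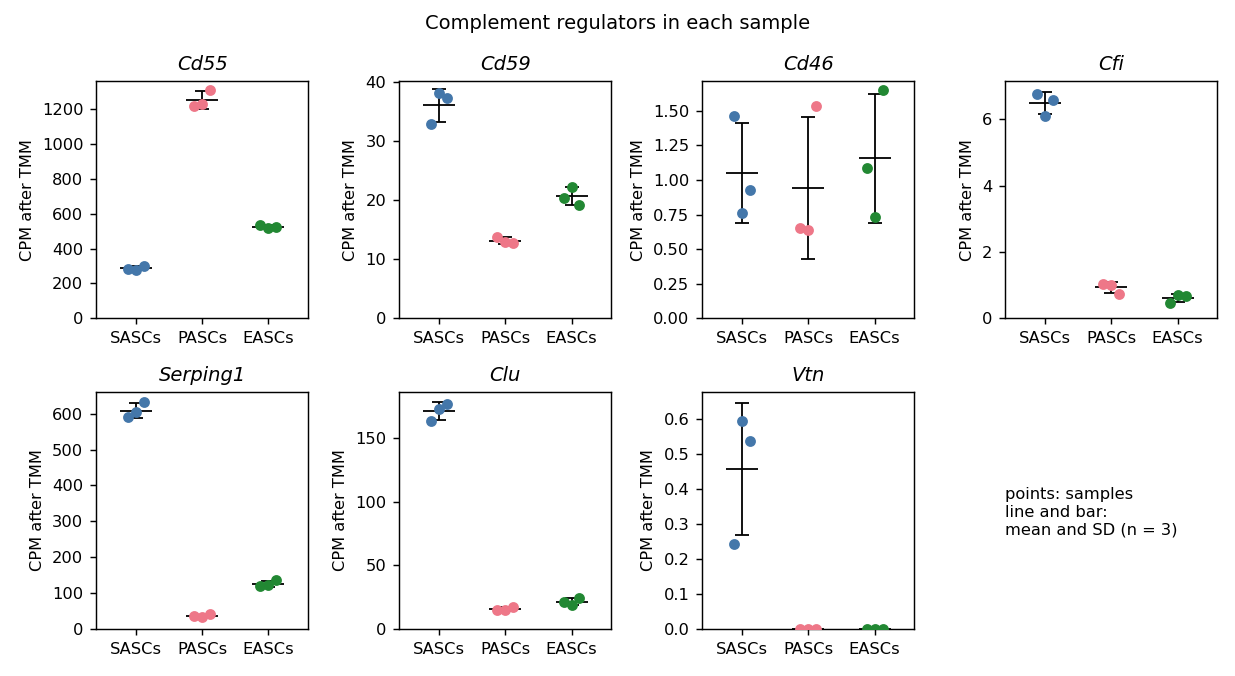
Level of each of the 7 regulators in CPM after TMM (vertical axes, linear from 0, with a scale of their own) in the 3 samples of SASCs, PASCs, and EASCs, as points, with the mean and SD. Cd55 is highest in PASCs and lowest in SASCs, Cd59, Cfi, Serping1, and Clu are highest in SASCs, the groups of Cd46 overlap, and Vtn is at 0 outside SASCs.

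Cd55, the decay-accelerating factor, is held in the outer membrane by a lipid anchor. It lies on chromosome 13 (47125089 to 47153549, minus strand) in rn6, the build of all positions of genes given here. SASCs had 282, 279, and 300.5 CPM in samples 1 to 3, PASCs had 1219, 1232, and 1312 CPM, and EASCs had 537, 517, and 525 CPM. The 3 groups did not overlap, with PASCs above EASCs and EASCs above SASCs. Cd55 was 4.37-fold higher in PASCs than in SASCs (log2 fold change 2.13, standard error 0.0567, adjusted p = 3.17e-22, edgeR). In EASCs it was 1.83-fold higher than in SASCs (log2 fold change 0.87, standard error 0.0551, adjusted p = 7.40e-14, edgeR), which passed the test but not the fold of 2. EASCs were lower than PASCs by 2.38-fold (log2 fold change -1.25, standard error 0.0551, adjusted p = 2.60e-16, edgeR).

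Cd59 carries the same kind of lipid anchor and caps the membrane attack complex. Its gene is on chromosome 3 (94010481 to 94028660, plus strand). SASCs had 32.9, 38.1, and 37.3 CPM, PASCs had 13.8, 12.9, and 12.7 CPM, and EASCs had 20.4, 22.3, and 19.3 CPM. The groups were again separate, but in the opposite order to Cd55, with SASCs highest and PASCs lowest. Cd59 was 2.74-fold lower in PASCs than in SASCs (log2 fold change -1.46, standard error 0.0885, adjusted p = 3.46e-14, edgeR) and 1.74-fold lower in EASCs (log2 fold change -0.80, standard error 0.0846, adjusted p = 3.17e-09). The latter is below the fold of 2, and scaling by total counts without TMM put it past that fold, at -1.19, while the median of all genes moved to -0.39. EASCs were above PASCs by a log2 fold change of 0.65 (adjusted p = 2.04e-06). Per kilobase of gene model, SASCs held 3.48 ± 0.278 Cd55 for each Cd59, PASCs 41.8 ± 3.21, and EASCs 11.2 ± 0.920 (SD, n = 3 each).

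Cd46, membrane cofactor protein, is expressed mainly in the testis in rodents, where the related gene Cr1l (Crry) serves as the widely expressed membrane cofactor. Cd46 had 17 to 42 counts in a sample. SASCs had 1.46, 0.764, and 0.927 CPM, PASCs had 0.650, 0.635, and 1.53 CPM, and EASCs had 1.09, 0.729, and 1.65 CPM. The samples of the groups overlapped throughout, and no comparison passed the test (adjusted p = 0.646 in PASCs, 0.819 in EASCs, and 0.596 between the visceral groups, edgeR). The log2 fold changes were -0.23, 0.11, and 0.34, with standard errors of 0.423, 0.412, and 0.422, so differences of that size were not detectable at this depth.

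Cr1l lies 5.91 kb from Cd46 on chromosome 13, from 113824886 to 113872097 on the minus strand, and belongs to a list of other complement regulators. SASCs had 110.0 ± 1.50 CPM of Cr1l, PASCs 79.9 ± 9.49 CPM, and EASCs 73.2 ± 4.51 CPM (SD, n = 3 each). Both visceral groups lay below every SASC sample, by log2 fold changes of -0.46 (adjusted p = 9.50e-07, edgeR) and -0.59 (adjusted p = 1.81e-08), whereas PASCs and EASCs overlapped (adjusted p = 0.191). Cd55 was thus the one membrane regulator among these 4 that passed the test with an increase in the visceral groups. Per kilobase, Cd55 exceeded Cr1l 1.51 to 1.66 times in the SASC samples, 8.77 to 10.3 times in those of PASCs, and 4.13 to 4.59 times in those of EASCs.

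Serping1, the C1 inhibitor, is secreted and controls the first proteases of the classical and lectin pathways. The gene lies on chromosome 3 (72161230 to 72171109, minus strand). SASCs had 589, 603, and 631 CPM, PASCs had 34.7, 33.9, and 40.6 CPM, and EASCs had 119.5, 123, and 135 CPM. The 3 groups were separate, with PASCs lowest. Against SASCs, Serping1 fell 16.8-fold in PASCs (log2 fold change -4.07, standard error 0.0712, adjusted p = 4.45e-26, edgeR) and 4.83-fold in EASCs (log2 fold change -2.27, standard error 0.0643, adjusted p = 1.03e-21). The 2 visceral groups differed from each other by 3.47-fold, EASCs being higher (log2 fold change 1.79, standard error 0.0680, adjusted p = 1.13e-17).

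Clu encodes clusterin, a secreted chaperone that keeps terminal complexes in solution. It is on chromosome 15 (42626612 to 42665857, plus strand). SASCs had 163, 173, and 177 CPM, PASCs had 14.7, 14.8, and 17.4 CPM, and EASCs had 21.1, 19.1, and 24.1 CPM. SASCs stood far above both visceral groups, and the lowest sample of EASCs was above the highest of PASCs. The decrease against SASCs was 11.0-fold in PASCs (log2 fold change -3.46, standard error 0.0790, adjusted p = 1.16e-23, edgeR) and 7.99-fold in EASCs (log2 fold change -3.0, standard error 0.0761, adjusted p = 9.38e-23). EASCs were higher than PASCs by 0.46 on the log2 scale (adjusted p = 1.06e-04), below the fold of 2, and this difference missed the p threshold under scaling by total counts (0.37, adjusted p = 0.151). Clu overlaps Scara3 on the other strand over 11798 bases, and Scara3 also fell, being at 256 ± 8.40 CPM (SASCs), 41.9 ± 1.66 CPM (PASCs), and 44.4 ± 2.45 CPM (EASCs; SD, n = 3 each). Whether the counting kept the reads of overlapping genes apart is not given in the sources used here.

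Cfi, complement factor I, is the protease that inactivates C3b and C4b. It lies on chromosome 2 (235264149 to 235305779, plus strand). SASCs had 195, 144, and 135 counts of Cfi (6.78, 6.11, and 6.59 CPM), PASCs had 27, 27, and 14 counts (1.03, 1.01, and 0.741 CPM), and EASCs had 11, 17, and 15 counts (0.460, 0.689, and 0.671 CPM). SASCs were above all other samples. Cfi was 6.87-fold lower in PASCs (log2 fold change -2.78, standard error 0.232, adjusted p = 3.02e-11, edgeR) and 10.6-fold lower in EASCs (log2 fold change -3.41, standard error 0.249, adjusted p = 1.79e-12) than in SASCs. Between EASCs and PASCs the log2 fold change of -0.63 did not pass the test (standard error 0.310, adjusted p = 0.132), although the samples did not overlap. The whole of Cfi lies within Ccdc109b on the other strand, which had 2.45 ± 0.432 CPM (SASCs), 4.53 ± 0.588 CPM (PASCs), and 5.42 ± 0.703 CPM (EASCs; SD, n = 3 each), the reverse order.

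Vtn encodes vitronectin, an adhesive plasma protein that also binds terminal complexes and is made mainly by the liver. It is on chromosome 10 (65767960 to 65771040, plus strand). It had 7, 14, and 11 counts in SASCs and 0 in each of the 6 visceral samples, so it did not pass the filter on low counts. With 32 counts over the SASCs and a floor of 3 counts over a group, it was at least 10.5-fold higher in SASCs than in PASCs and at least 10.4-fold higher than in EASCs. These bounds cover the counting error of the groups at 0 only, since the 32 counts were taken as exact. Its level in SASCs was 0.243, 0.594, and 0.537 CPM, below every sample of Cd46 there on this scale. Per kilobase of gene model, Vtn (0.287 ± 0.118) and Cd46 (0.221 ± 0.0766; SD, n = 3 each) overlapped in SASCs.

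**Figure D2:**
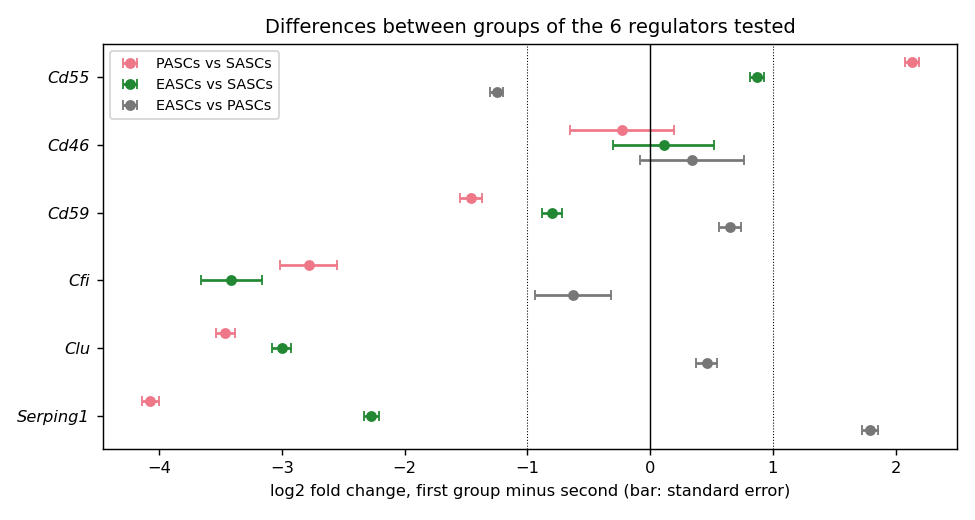
Log2 fold change (horizontal axis) of the 6 regulators that were tested, for PASCs against SASCs, EASCs against SASCs, and EASCs against PASCs, with bars of 1 standard error and dotted lines at a fold of 2. Against SASCs, Cd55 lies to the right of 0, from 0.87 to 2.13, and Cfi, Clu, and Serping1 lie between -4.07 and -2.27. For EASCs against PASCs, Cfi lies at -0.63, Clu at 0.46, and Serping1 at 1.79. The comparisons with SASCs share the SASC samples.

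Levels of different genes were compared per kilobase of gene model. In SASCs the order was Serping1 (319 ± 11.2 CPM per kilobase), Clu (84.8 ± 3.53), Cd55 (82.6 ± 3.36), Cd59 (23.8 ± 1.84), and Cfi (2.76 ± 0.146; SD, n = 3 each), of which Clu and Cd55 overlapped, and Vtn and Cd46 followed with overlapping levels under 0.5 CPM per kilobase. In PASCs, Cd55 came first at 361 ± 14.4 CPM per kilobase, followed by Serping1 at 19.1 ± 1.92, then by Cd59 at 8.65 ± 0.373 and Clu at 7.74 ± 0.771, which overlapped. In EASCs the order was Cd55 (151 ± 2.80 CPM per kilobase), Serping1 (66.0 ± 4.22), Cd59 (13.6 ± 1.00), and Clu (10.6 ± 1.26), without overlap between neighbours. Cfi and Cd46 were the lowest of the detected regulators in both visceral groups, and their samples overlapped.

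As a share of the summed level of the 7 regulators per kilobase, Cd55 took 16.1% ± 0.352 of that of SASCs, 90.9% ± 0.285 of that of PASCs, and 62.5% ± 1.41 of that of EASCs (SD, n = 3 each). Serping1 took 62.1% ± 0.153, 4.80% ± 0.282, and 27.2% ± 1.34, and Clu 16.5% ± 0.248, 1.95% ± 0.109, and 4.38% ± 0.437. Cd59 stayed between 2.01 and 6.17% in every sample. SASCs had a sum of 513 ± 18.6 CPM per kilobase, PASCs 397 ± 16.8, and EASCs 242 ± 4.62. The sum of the regulators was thus lower in both visceral groups, and most of it was the transcript of Cd55.

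**Figure D3:**
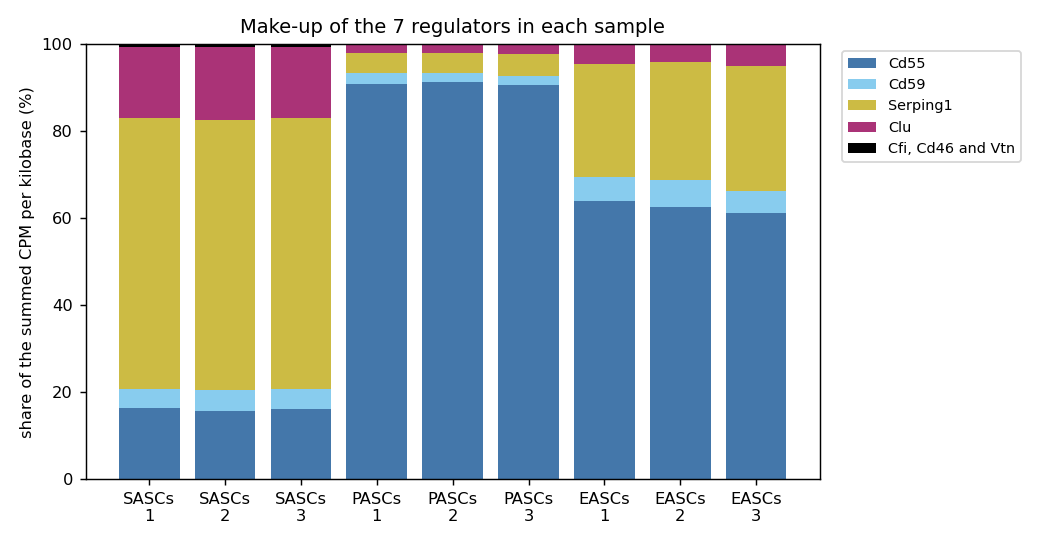
Share of each regulator, in percent, of the summed CPM per kilobase of the 7 regulators in each of the 9 samples, with Cfi, Cd46, and Vtn joined because they are small. Serping1 is the largest part in every SASC sample, at about 62%, and Cd55 in every sample of PASCs (90.6 to 91.2%) and EASCs (61.1 to 64.0%).

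Promoter sequence was found in RefSeq's table (build GRCr8, another build than that of the counts) for 4 of the 7 regulators, Cd55, Cd46, Cfi, and Vtn. The letters of the GC box (GGGCGG) occurred 3 times in the 250 bases before the start of Cd55, 2 of them overlapping within the last 30 bases, once in Vtn, and not in Cd46 or Cfi. Of 33469 rat promoters of the same length, 30.5% hold it on either strand. Those 30 bases are shown for Cd55, which was higher in the visceral groups, beside those of Cfi, which was lower, with the GC boxes in capitals as read on the other strand. They stand at chr13:44438102-44438131 on the minus strand and chr2:221063286-221063315 on the plus strand, next to starts that lie 812 and 1110 bases inside the gene records of RefSeq, so longer transcripts may begin further upstream.
Cd55: ccCCGCCCCGCCCctccgcagccattcaat
Cfi: cgtggagacgcagccccgcacacctccagc

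Other motifs were searched in the same 250 bases on both strands. The STAT motif TTCNNNGAA was found in Vtn (7.67% of all promoters), the AP-1 motif TGANTCA in Cd46 (6.34%), and CCAAT in Cd46 (34%). The TATA box TATAAA (12.9% of all promoters) and the interferon-stimulated response element (3.41%) were in none of the 4 windows. These are matches of letters only.

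The genes whose pattern was nearest to Cd55, by the root mean square difference of centred log2 CPM over the 9 samples among 10165 genes at 5 CPM or more, were Lmo7 (0.142), Nqo1 (0.145), and Lpar1 (0.154). Nqo1, a quinone reductase, stood at 90.7 ± 1.84, 333 ± 11.3, and 172 ± 3.90 CPM in SASCs, PASCs, and EASCs (SD, n = 3 each). Nearest to Serping1 were Apoe (0.157), Ednra (0.226), and Spon1 (0.248). Apoe, the apolipoprotein E gene, was at 830 ± 32.4, 56.7 ± 4.41, and 178 ± 9.97 CPM in the same order of groups. These distances describe the 9 samples, which differ mostly by depot.

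Other genes of the complement system were read from a list of 55, of which 52 were in the table, 32 had enough counts to be tested, and 9 had 0 counts in every sample. In PASCs against SASCs, 9 of the 32 were called higher and 14 lower (12% and 14.9% of all genes tested), and in EASCs 13 higher and 12 lower (13.5% and 14.2% of all genes). Without TMM the split in PASCs was 6 higher and 17 lower. Between EASCs and PASCs, 10 were called higher in EASCs and 0 lower by edgeR's test (5.19% and 2.2% of all genes), of 20 higher and 4 lower at any fold, where 30.7% of all genes passed.

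C1r and C1s, proteases that Serping1 inhibits, were lower in both visceral groups, as was Serping1. C1s stood at 1627 ± 24.3 CPM (SASCs), 136 ± 4.27 CPM (PASCs), and 217 ± 3.59 CPM (EASCs; SD, n = 3 each), lower by log2 fold changes of -3.58 (adjusted p = 8.85e-27, edgeR) and -2.91 (adjusted p = 2.33e-25). C1r, named after its values were seen, changed by -1.95 in PASCs and -1.76 in EASCs. Per kilobase, Serping1 stood to C1s at a ratio of 0.567 ± 0.0122 (SASCs), 0.406 ± 0.0287 (PASCs), and 0.880 ± 0.0436 (EASCs), and the ratio of Serping1 to C1r was 0.626 ± 0.0242, 0.144 ± 0.0111, and 0.439 ± 0.0143. The inhibitor thus fell more than both proteases in PASCs, and less than C1s in EASCs. Masp1, a protease of the lectin pathway named for the same reason, rose instead, to 253 ± 10.1 CPM (PASCs) and 156 ± 6.75 CPM (EASCs) from 58.2 ± 2.79 CPM (SASCs; log2 fold changes 2.12, adjusted p = 5.98e-22, and 1.42, adjusted p = 3.79e-18, edgeR). Masp2, the other protease of that pathway tested and also named after its values were seen, was lower in both groups, by -1.33 (PASCs, adjusted p = 3.14e-04, edgeR) and -1.38 (EASCs, adjusted p = 2.20e-04).

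The recognition molecule C1q, a product of macrophages in many tissues, rose in EASCs. SASCs had 0.904 ± 0.147 CPM of C1qb and EASCs 6.40 ± 0.953 CPM (log2 fold change 2.83, adjusted p = 1.91e-10, edgeR) and the same groups had 0.976 ± 0.509 and 6.70 ± 1.33 CPM of C1qc (log2 fold change 2.82, adjusted p = 4.28e-10; SD, n = 3 each). C1qa, named after its values were seen, had 3.82 ± 1.08 CPM (SASCs), 6.65 ± 0.193 CPM (PASCs), and 20.6 ± 0.811 CPM (EASCs; SD, n = 3 each). It was called higher in EASCs at 2.41 (adjusted p = 1.07e-14, edgeR) and passed below the fold of 2 in PASCs at 0.78 (adjusted p = 5.94e-05). In PASCs, C1qb was called higher at 1.27 (adjusted p = 3.11e-04), but stood below the fold of 2 without TMM, at 0.92, while C1qc at 0.69 did not pass (adjusted p = 0.0513). Its value ranged from 0.48 to 1.15 with 1 sample left out, and C1qc passed without SASCs replicate 3, without PASCs replicate 1, or without EASCs replicate 3. Of the 9 genes tested from the list of complement receptors, 6 were called higher and 0 lower in EASCs. In PASCs, 5 were called higher and 1 lower. Of all genes, 13.5% (EASCs) and 12% (PASCs) were called higher. The gene of that list called lower in PASCs was Cd93, named after its values were seen (log2 fold change -1.63, adjusted p = 8.21e-14, edgeR). Those called higher in both groups included C3ar1, the C3a receptor (log2 fold changes 2.73 and 1.43), and the leukocyte integrin genes Itgax (2.50 and 2.03) and Itgb2 (2.35 and 1.58). Of the 6 leukocyte markers tested, 5 were called higher in EASCs and 3 in PASCs. Of the 6 endothelial markers tested, 1 was called higher and 5 lower in PASCs, and 1 higher and 1 lower in EASCs. The part of either list in these values was not tested.

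The transcripts of C3 and C4b, whose products Cd55, Cfi, and the cofactors act on, were lower to different extents. C4b was lower by log2 fold changes of -6.42 in PASCs and -6.64 in EASCs, and C4a, a near-identical copy that may share its reads, had 2 or 3 counts in SASCs and 0 elsewhere. C3 stood at 7.34 ± 0.701 CPM (SASCs), 0.617 ± 0.168 CPM (PASCs), and 5.25 ± 0.312 CPM (EASCs; SD, n = 3 each). It was lower in PASCs by -3.60 (adjusted p = 3.78e-14, edgeR), but in EASCs by -0.48 (adjusted p = 0.00922), and EASCs exceeded PASCs by 3.11 (adjusted p = 1.12e-11). Cfd, the protease of the alternative pathway also known as adipsin, changed by -1.41 in PASCs and -2.26 in EASCs, and the whole gene overlaps Hmha1, which had 0.683 to 3.06 CPM on average in the groups.

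Among the other regulators of the list, Thbd encodes thrombomodulin, which promotes the inactivation of C3b. It was reduced to 18.6 ± 1.09 CPM (PASCs) and 10.3 ± 0.906 CPM (EASCs) from 53.5 ± 1.15 CPM (SASCs; SD, n = 3 each). The log2 fold changes were -1.53 (adjusted p = 8.86e-16, edgeR) and -2.37 (adjusted p = 1.78e-19). Csmd2, of the CUB and sushi domain family, had 0, 1, and 1 counts (SASCs), 10, 20, and 8 (PASCs), and 29, 42, and 26 (EASCs), and was called higher in both visceral groups (adjusted p = 6.92e-05 and 1.15e-07, edgeR). C4bpa, a subunit of the C4b-binding protein whose gene lies 189 kb from Cd55, was too low to be tested.

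The terminal components that Cd59, Clu, and Vtn hold in check were reduced where they could be tested. C7 dropped to 0.512 ± 0.208 CPM (PASCs) and 3.50 ± 0.221 CPM (EASCs) from 86.4 ± 1.34 CPM (SASCs; SD, n = 3 each), by log2 fold changes of -7.45 (adjusted p = 5.81e-26, edgeR) and -4.62 (adjusted p = 1.43e-24). C6 changed by -5.49 and -4.12, and C8g by -0.76 and -1.03, the latter falling short of the fold of 2 without EASCs replicate 2 or 3. In PASCs, C8g went past the fold of 2 without TMM (-1.09, adjusted p = 1.74e-04, edgeR). The gene of C8g overlaps Fbxw5, which has more counts, over 882 bases on the other strand. For C6 and C7, EASCs exceeded PASCs, by 1.37 (adjusted p = 1.87e-06) and 2.83 (adjusted p = 9.39e-12). C8a and C8b had 0 counts in every sample, and C5 and C9 were too low to be tested, so the RNA of a whole membrane attack complex was not detectable in any group at this depth.

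**Figure D4:**
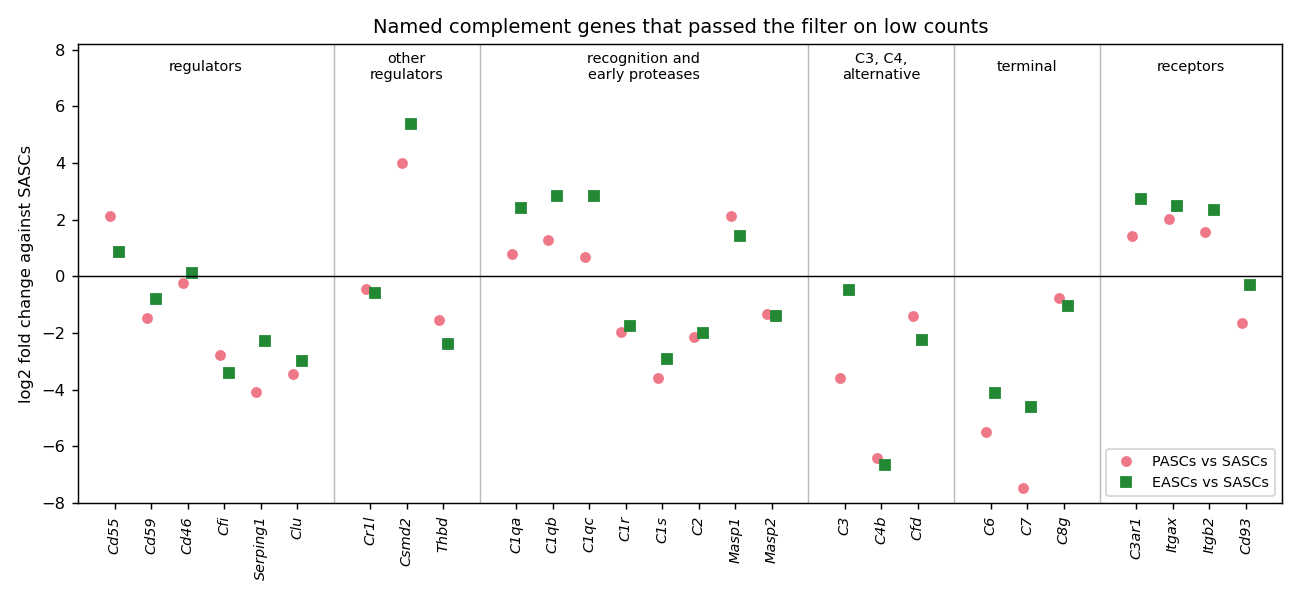
Log2 fold change against SASCs (vertical axis) of the 6 regulators and of the other complement genes named here that were tested, in groups by role, for PASCs (circles) and EASCs (squares), which share the SASC samples. Cd55, Csmd2, the C1q genes, Masp1, C3ar1, Itgax, and Itgb2 lie above 0, and Cfi, Serping1, Clu, C1r, C1s, C2, C3, C4b, C6, C7, Masp2, and Cd93 lie below 0.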

How the data were processed

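RNA of 9 samples of ASCs, 3 each of SASCs, PASCs, and EASCs, was sequenced by the authors as paired reads, trimmed with cutadapt and FastX-Toolkit, and aligned with TopHat to rn6 (GEO's labels name TopHat2 and rn5, and the scaffold names of the table are those of rn6). The deposited values are whole read counts per gene, not normalized, for 35362 genes. The counting tool and its use of strand are not given in the sources used here. The counts of Rn18s, Rn28s, and Rn5-8s summed to 99.9 to 100% of those of Rn45s, which contains them, so the reads of these genes were counted for each. Whether this holds for other overlapping genes was not tested.

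Samples were grouped by their titles. The counts were scaled by TMM (factors 0.740 to 1.23), filtered with filterByExpr, and tested with edgeR 4.0.16 in R 4.3.3, all samples in a single fit with a term per group. CPM are counts per 1e+06 counts of the TMM-scaled library, and levels per kilobase divide them by the length in the table. The fit was tested on simulated counts. The members and lists were chosen with earlier results of these data known. Named genes were the 7 regulators, Cr1l, C3, C4a, C4b, at most 3 genes of each complement list with the largest change against SASCs at 1 CPM or more in the higher group, and the 3 genes nearest to Cd55 and to Serping1 in pattern. C1r, Masp1, Masp2, Cd93, C1qa, C2, C4bpa, C5, C8a, C8b, and C9 were added after their values were seen. Some items that the rule or the lists hold are not reported here. No samples were near-identical (chi-square per degree of freedom of 6.23 to 288 within groups). Depth limits a gene at 3 counts to 0.104 to 0.159 CPM, counting error only. Alternatives were DESeq2 1.42.0, other scalings and filters, removal of rRNA genes, fits to 2 groups at a time, a block for the replicate number, and leaving out each sample.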

Additional observations from a re-analysis of the deposited data

How the results depend on the processing

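At any fold, with an adjusted p-value under 0.05, 5 regulators passed in EASCs against SASCs and 4 between EASCs and PASCs, and of the other complement genes 24 did in the last comparison. No other alternative that was run moved a count of calls by over 1.5 times. With each sample left out in turn, the regulators called numbered 3 to 4 in EASCs, 5 to 6 in PASCs, and 2 to 2 between EASCs and PASCs, and the other complement genes 24 to 25, 23 to 24, and 9 to 11. The higher counts for the regulators include Vtn, which was called against SASCs in both visceral groups in 7 of the 9 fits with a sample left out (all but those without SASCs replicate 2 or 3, where it was filtered), without a filter (adjusted p = 3.90e-04 in PASCs, edgeR), and by DESeq2 (adjusted p = 5.24e-04). Same-numbered samples did not deviate together (correlations of -0.0348 to 0.0380 between their deviations), so the numbers give no pairing. A fit with a replicate block called 3, 5, and 2 regulators and 25, 23, and 10 other genes, the counts of the fit without it.

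Of 1508 single values of the tested genes under alternatives, 1483 kept their direction and their side of an adjusted p-value of 0.05, and 7 reversed, of Cd46 and of Masp2 between EASCs and PASCs (0.00 without PASCs replicate 3, 0.23 without EASCs replicate 1), none past that threshold. With the fold of 2 as well, 5 values became calls and 6 were no longer called. In EASCs, Cd46 was at -0.32 without TMM, -0.01 without TMM and rRNA genes (chosen after seeing the data), and between -0.22 and 0.45 with 1 sample left out (-0.08 without SASCs replicate 2, -0.22 without EASCs replicate 3), and in PASCs between -0.72 and 0.11 (the latter without SASCs replicate 1). The causes were not tested. Without TMM the median of all genes moved to -0.39 in EASCs and -0.33 in PASCs, and Cd55 stood at 0.48 and 1.81. Leaving out 1 sample kept Cd55 in PASCs between 2.09 and 2.16 and Serping1 between -4.15 and -4.01. Genes near 3 counts, such as Vtn, are limited by depth.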
